A study of Mus musculus with 8 samples.

Results

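The 8 genes described here encode surface molecules through which an activated B cell contacts a helper T cell: the CD28 and CTLA-4 ligands Cd80 and Cd86, the ICOS ligand Icosl, the PD-1 ligands Cd274 (PD-L1) and Pdcd1lg2 (PD-L2), the herpesvirus entry mediator Tnfrsf14 (HVEM) with its partner Btla, and Cd83. They were taken by symbol, with no cutoff on their values, from the 24259 genes of the count table. All 8 were found and all 8 passed the filter on low counts that left 12744 genes for testing. RNA was measured by SMART-Seq2, a full-length protocol for small cell numbers, in NP-binding, IgD-low, B220-positive pre-GC B cells, that is, hapten-specific B cells on their way into the germinal center (GC). They were sorted from draining lymph nodes of mice at day 3 after immunization with NP-OVA given with LPS in alum. All recipients were CD45.1 Sap-/- mice, whose own T cells cannot support GCs, and had been given OT-II T cells, which recognize an ovalbumin peptide. The B cell samples carried the strain label C57BL/6.

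In the GENCODE M21 annotation of GRCm38 all 8 are protein-coding. Cd86 (chr16:36603869-36666081, minus strand), Cd80 (chr16:38455561-38496335, plus) and Btla (chr16:45224315-45257670, plus) lie on chromosome 16, and Cd274 (chr19:29367455-29388095, plus) and Pdcd1lg2 (chr19:29410919-29471161, plus) on chromosome 19. Icosl is at chr10:78069302-78083913 (plus), Cd83 at chr13:43784775-43803132 (plus) and Tnfrsf14 at chr4:154921933-154928563 (minus).

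In the HET group the transferred OT-II T cells were Cd4-cre x Bcl6 fl/+, and in the WT group they were Cd4-cre. Cd4-cre acts in T cells from their CD4-expressing stage, and Bcl6 encodes the repressor that follicular helper T cells depend on. Both groups therefore shared the Cre transgene, the OT-II receptor and the Sap-deficient host, and they differed in a floxed Bcl6 allele of the helper T cells. Since Bcl6 was targeted in the transferred T cells and not in the B cells, no targeted gene was there to check the labels. Each group comprised 4 libraries of about 200 cells, which were repeat sorts from the pooled cells of its recipients. The spread between them was that of sorting and library preparation, and p-values measure no more than that spread. Because each group was a pool, a difference between groups and a difference between pools cannot be told apart.

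B7 molecules are immunoglobulin-superfamily ligands that tune T cell activation, each by binding activating or inhibitory receptors. On B cells, CD86 and CD80 engage CD28, ICOSL engages ICOS on follicular helper T cells, and the PD-1 ligands restrain the same T cells, while BTLA is an inhibitory receptor of the B cell that binds HVEM. CD83 is an activation marker of B cells and dendritic cells that holds CD86 and MHC class II at the surface by opposing the ubiquitin ligase MARCH1. CD40 engagement and antigen receptor signaling are known to raise several of these molecules, and the study asked whether CD40L delivery to B cells falls when helper T cells have less BCL6.

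Total counts ranged from 6652386 to 12559189 per library, and 3 counts corresponded to 0.241 to 0.455 CPM, the read count scaled to the size of the library. B cell transcripts were abundant in every library, with Cd79a, a signaling chain of the antigen receptor, between 3209 and 3999 CPM. The summed level of 8 B cell markers was nonetheless lower in HET (10743 to 11970 CPM) than in WT (12483 to 13441 CPM), without overlap between the groups (exact permutation p = 0.0286). Transcripts that mark other cells were found in both groups. The summed level of 12 T cell markers was 404 to 709 CPM in HET and 312 to 567 CPM in WT. The groups overlapped (exact permutation p = 0.314). Among these markers the Cd4 transcript was between 0 and 0.758 CPM, and Cd8b1, a chain of the CD8 coreceptor, reached 123 CPM. The largest part of the sum came from Cd2, which B cells also express (168 to 246 CPM). The 13 dendritic and myeloid cell markers summed to 59.6 to 180 CPM in HET and 30.1 to 437 CPM in WT, where the highest value came from the macrophage lysozyme Lyz2 in WT replicate 2 (399 CPM). Of these markers 9 were tested, 3 of them higher in HET and 6 lower (median log2 fold change -0.66). Flt3, a receptor of dendritic cell progenitors, was higher in HET (15.6 to 26.1 CPM) than in WT (5.80 to 12.3 CPM) without overlap. Its log2 fold change was 1.36 (SE 0.34, edgeR adjusted p = 0.280, DESeq2 adjusted p = 0.0255). Csf1r went the other way, at 5.09 to 9.71 CPM in HET and 8.14 to 18.7 CPM in WT, which overlapped. Its log2 fold change was -0.93 (SE 0.36, edgeR adjusted p = 0.602, DESeq2 adjusted p = 0.384). Siglech, of plasmacytoid dendritic cells, was at 102, 91.8, 13.0 and 23.7 CPM in HET and 0, 0, 5.93 and 39.0 CPM in WT, which overlapped, and Cd14, Fcgr1 and Batf3 were at 0 in most libraries. Dendritic cells also express Cd83, and the part of these cells in its level was not tested. The 6 markers of antibody-secreting cells summed to 2041 CPM in HET replicate 1 and to between 219 and 514 CPM in the other libraries. Most of the sum in HET replicate 1 came from Jchain (1576 CPM). That library also had the lowest Cd83 (489.8 CPM), and a relation between the 2 was not tested. Of 6 stromal and vascular markers, 2 were in the table. Pecam1, an adhesion molecule of endothelium and of leukocytes, was at 127 to 173 CPM, and Cdh5, which defines endothelium, lay between 0 and 2.49 CPM.

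Levels per transcript length, as TPM (counts divided by transcript length and scaled to the library), spread the 8 genes over a wide range. Cd83 was the most abundant, with a mean of 131 TPM over the 8 libraries (SD 33.0, n = 8), followed by Btla (45.0 TPM, SD 5.39) and Icosl (17.4 TPM, SD 5.41). Cd86 (4.57 TPM, SD 0.889), Cd274 (3.92 TPM, SD 1.11) and Tnfrsf14 (2.93 TPM, SD 1.34) formed a middle group. Pdcd1lg2 (1.07 TPM, SD 0.319) and Cd80 (0.374 TPM, SD 0.290) had the lowest levels. Neighbours in this order were compared within libraries by exact sign-flip permutation tests over all sign patterns on log2(TPM + 1), with the 7 p-values adjusted together. The order came from the same libraries, so the tests describe how far neighbours are separated and are no independent test of the order. Of the 7 neighbouring pairs, 5 differed beyond their spread: Cd83 was above Btla, Btla above Icosl and Icosl above Cd86 in 8 of 8 libraries (permutation, adjusted p = 0.0137 for each), as was Pdcd1lg2 above Cd80, and Tnfrsf14 exceeded Pdcd1lg2 in 7 of 8 (permutation, adjusted p = 0.0219). Cd86 and Cd274 did not differ beyond their spread (0.20 on the log2 scale, higher Cd86 in 6 of 8 libraries, permutation, adjusted p = 0.164), nor did Cd274 and Tnfrsf14 (0.36, higher Cd274 in 6 of 8, permutation, adjusted p = 0.128). Without WT replicate 4 the latter pair did differ (0.49, permutation, adjusted p = 0.0365). Among the tested genes, the mean CPM of Cd83 ranked at percentile 98.8, that of Btla at 97.0 and that of Cd80 at 17.5.

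**Figure D1:**
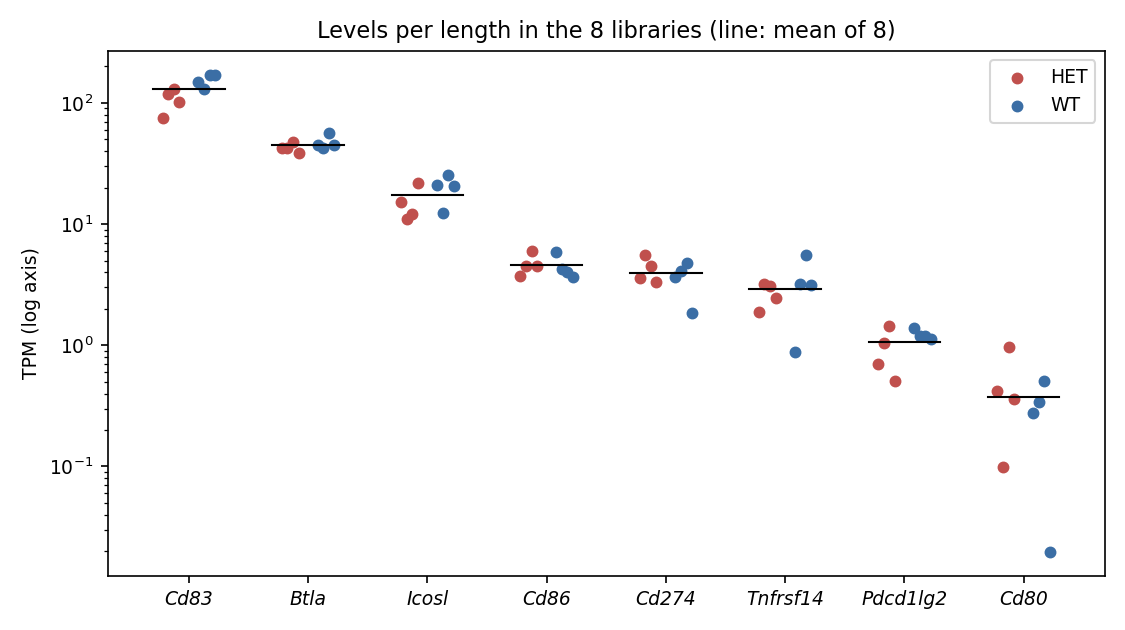
TPM of each gene in the 4 HET and 4 WT libraries on a log axis, with the mean of all 8 libraries as a line. Levels fell from Cd83 (mean 131 TPM) to Cd80 (mean 0.374 TPM). The ranges of Cd86 (3.66 to 5.98 TPM), Cd274 (1.85 to 5.60 TPM) and Tnfrsf14 (0.874 to 5.52 TPM) overlapped in part.

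Between libraries, Btla and Cd86 were the steadiest of the 8 genes, with the highest library 1.48-fold and 1.63-fold above the lowest in TPM. Cd83 and Icosl spanned 2.26-fold and 2.29-fold. The low genes were the least steady, with 6.31-fold for Tnfrsf14 (15 to 67 counts) and 49.1-fold for Cd80 (2 to 68 counts), so that group differences in these 2 could be measured only coarsely at this depth.

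To ask whether help from HET T cells changed the contact molecules of the B cells, each gene was compared between HET and WT. Cd83 was lower in B cells helped by HET T cells by about 29.4%, a difference that DESeq2 called and edgeR did not, and no difference in the other 7 genes exceeded the spread between repeats. By edgeR, 0 of the 8 genes passed an adjusted p of 0.05 in either direction, against a background of 0.0235% of tested genes called lower (3 genes) and 0% called higher. At an unadjusted p of 0.05 in edgeR, 1 of the 8 was lower, where 3.88% of all tested genes were, and 0 were higher, where 3.34% were. By DESeq2, the tool of the study, 1 of the 8 was called lower and 0 higher, against 0.377% and 0.228% of tested genes. The groups did not overlap for 1 of the 8 genes, with HET the lower, while 2.62% of tested genes were separated in that direction and 1.99% in the other. In sign, 3 of the 8 were higher in HET and 5 lower. Their median log2 fold change was -0.15, and over all tested genes 49.9% were higher with a median of -0.00.

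**Figure D2:**
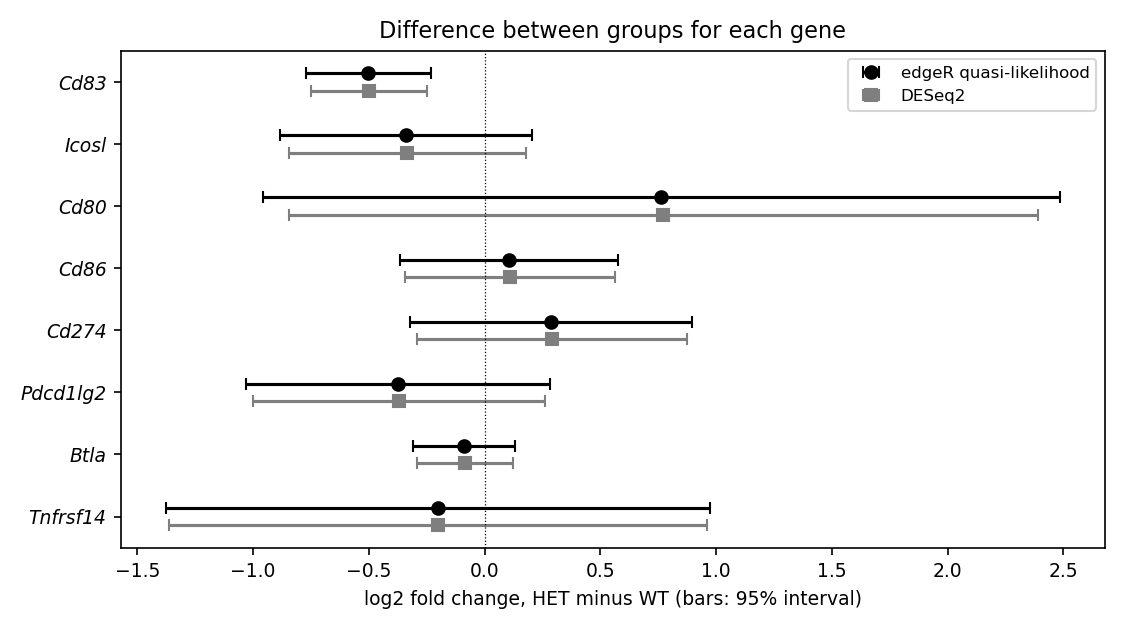
Log2 fold change (HET minus WT) of each gene with its 95% interval, by edgeR (black circles) and DESeq2 (grey squares). The Cd83 interval, -0.77 to -0.23 by edgeR, lay below 0, and the intervals of the other 7 genes included 0, most widely for Cd80 and Tnfrsf14.

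Cd83 stood at 489.8, 709, 774 and 629 CPM in HET replicates 1 to 4 and at 907, 777, 974 and 1025 CPM in WT replicates 1 to 4. Every HET library lay below every WT library, although HET replicate 3 (773.7 CPM) and WT replicate 2 (777.1 CPM) nearly met. The HET mean was 650.3 ± 122 CPM (SD, n = 4) and the WT mean 921 ± 107 CPM (SD, n = 4), with 4146 to 9823 reads behind each value. The log2 fold change was -0.50 (SE 0.13, 95% interval -0.77 to -0.23), with an edgeR adjusted p of 0.299 (unadjusted p = 0.00138, rank 58 of the tested genes). By DESeq2 the adjusted p was 0.0220. A two-sided exact permutation test of the 8 libraries gave p = 0.0286, the smallest that 70 arrangements allow. The call of Cd83 thus differed between the tools, whose fold changes were the same to 2 decimals.

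**Figure D3:**
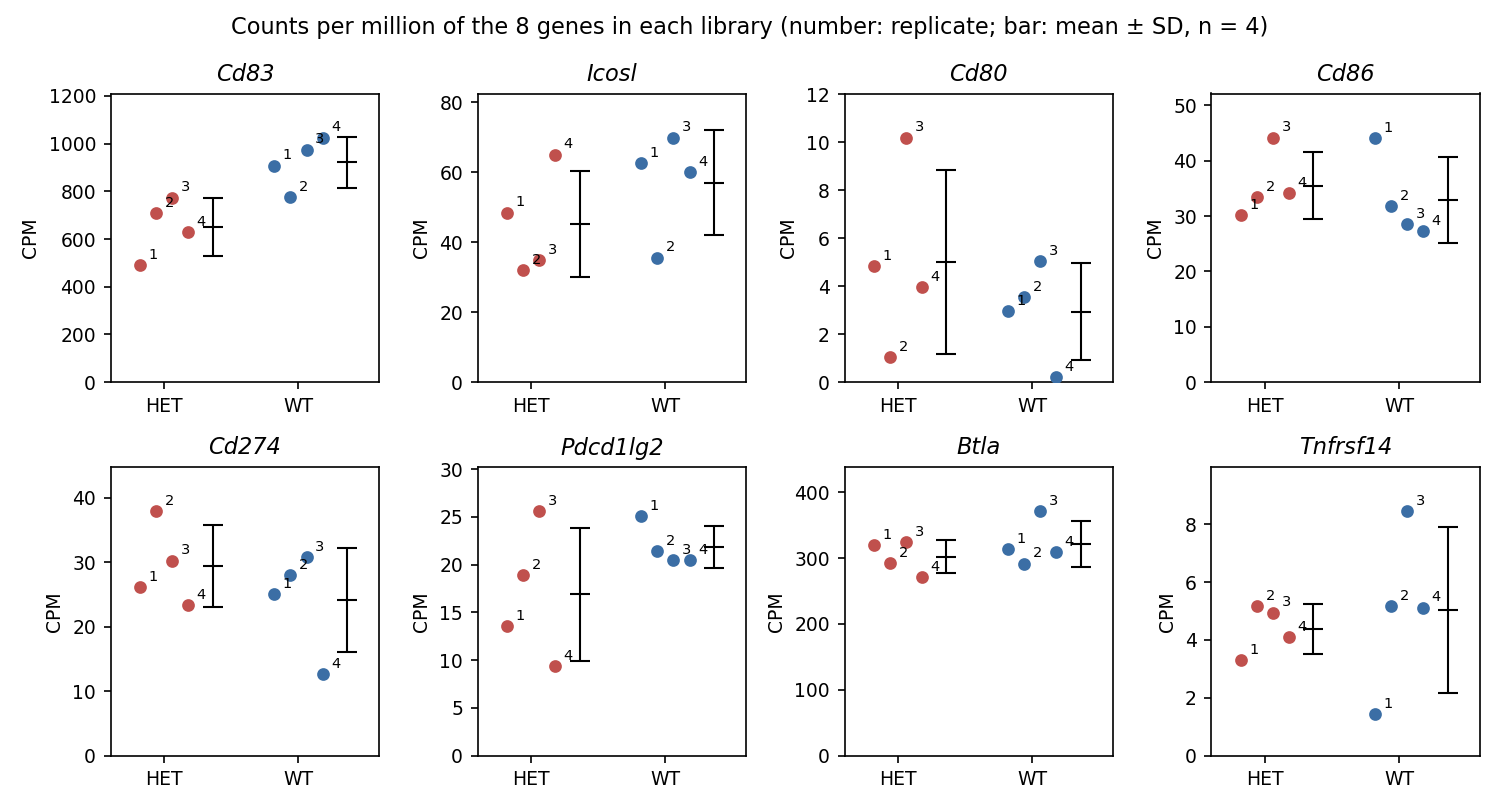
CPM of the 8 genes in each library, with replicate numbers beside the points and the mean ± SD (n = 4) to the right of each group. Cd83 was the one gene of the 8 whose HET points (489.8 to 774 CPM) and WT points (777 to 1025 CPM) did not overlap.

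The log2 fold change of Cd83 was negative in each alternative fit. Leaving out each library in turn gave edgeR log2 fold changes of -0.59 to -0.38, none of them called (adjusted p from 0.168 to 0.600). DESeq2, with log2 fold changes of -0.60 to -0.39 in such fits, kept the call in 5 of 8 and lost it without HET replicate 4 (-0.49, adjusted p = 0.0857), WT replicate 3 (-0.47, adjusted p = 0.128) or WT replicate 4 (-0.44, adjusted p = 0.128). Without the lowest and the highest library, HET replicate 1 and WT replicate 4, the log2 fold change was -0.33, with an adjusted p of 0.610 by edgeR and 0.242 by DESeq2. These 2 libraries were chosen after the values were seen.

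B cell markers, like Cd83, were lower in HET. All 8 markers had negative log2 fold changes (-0.37 to -0.06), and their summed level was 0.871-fold that of WT. At an unadjusted p of 0.05 in edgeR 6 of the 8 were lower, against 3.88% of tested genes. The groups did not overlap for 4 of the 8, against 2.62% of tested genes with HET the lower. By adjusted p, edgeR called 0 of the 8 and DESeq2 called 1, Cd22 (log2 fold change -0.37 by edgeR, DESeq2 adjusted p = 0.0086). Set against 100 counts of these markers, Cd83 gave 4.38, 6.35, 6.46 and 5.85 counts in HET replicates 1 to 4 and 6.86, 6.23, 7.25 and 8.15 in WT. On that scale the groups overlapped, at 5.76 ± 0.959 (SD, n = 4) against 7.12 ± 0.805 (SD, n = 4), with an exact permutation p of 0.0857. When library sizes were set by the B cell markers, the median over all tested genes rose by 0.20 on the log2 scale. Cd83 then read -0.31 (SE 0.12, edgeR adjusted p = 0.283). Its distance from that median was -0.51, against -0.50 in the TMM-scaled fit. Such a scaling moves all genes by about the same amount, so the likeness of these distances follows from its construction and tests nothing. Library by library, HET replicate 3 was the highest of HET and WT replicate 2 the lowest of WT for both Cd83 and the marker sum. The lowest library was HET replicate 1 for Cd83 and HET replicate 4 for the marker sum. The highest was WT replicate 4 for Cd83 and WT replicate 3 for the marker sum. In sorted bulk samples fewer B cells and less RNA per B cell cannot be told apart.

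**Figure D4:**
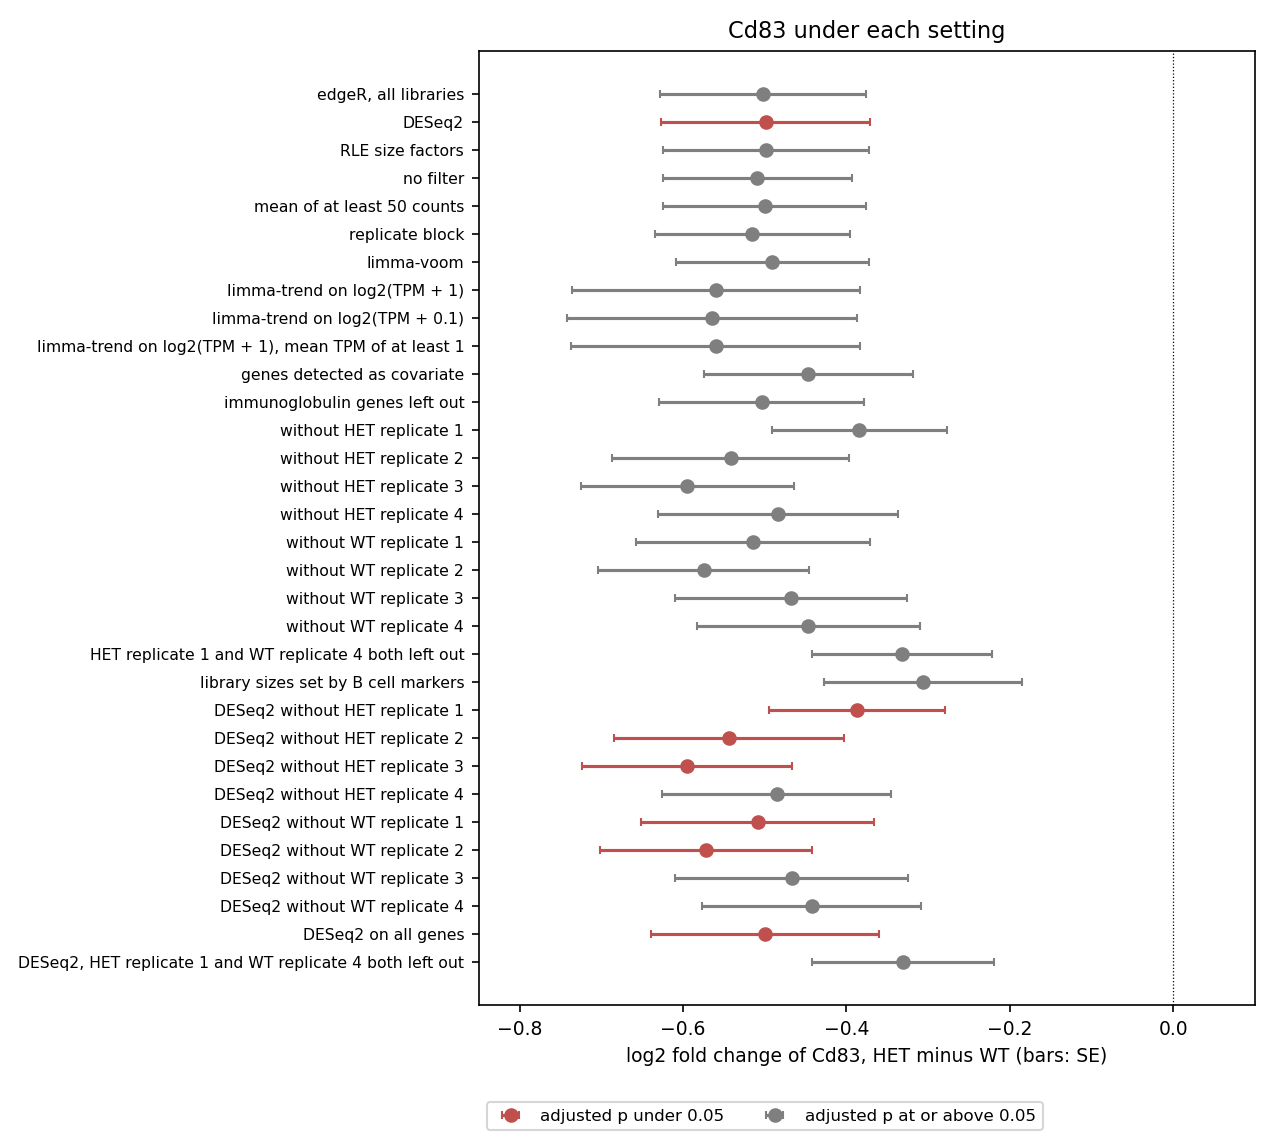
Log2 fold change of Cd83 (HET minus WT) with its SE under edgeR on all libraries and each alternative fit, in red where the adjusted p was under 0.05. All values lay below 0, between -0.60 and -0.31, and red marks occurred with DESeq2 and with no other tool.

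The genes whose log2 CPM most resembled that of Cd83 over the 8 libraries, among 7102 tested genes of moderate or higher level, were H2-DMb2, a chaperone chain for peptide loading of MHC class II (Pearson r = 0.968), and the unnamed transcripts C230085N15Rik (r = 0.966) and 6330537M06Rik (r = 0.959). These coefficients share the same libraries and group difference and are descriptive. H2-DMb2 was at 1168 to 1398 CPM in HET and 1393 to 1561 CPM in WT, which overlapped by a narrow margin. Over the 28 pairs of the 8 genes, r ran from -0.59 (Cd86 with Tnfrsf14) to 0.66 (Pdcd1lg2 with Cd83), with a median of 0.11.

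Of the CD28 ligands, Cd86 was found at 30.1, 33.4, 44.2 and 34.1 CPM in HET and at 44.1, 31.8, 28.5 and 27.2 CPM in WT, in the order of the replicates. The groups overlapped almost fully, and their top values, HET replicate 3 and WT replicate 1, were alike. The log2 fold change was 0.11 (95% interval -0.37 to 0.58, edgeR adjusted p = 0.957), a range that includes a fold of 0.776 and of 1.49, and it came to -0.01 without HET replicate 3. Cd80, the later and scarcer CD28 ligand, was at 4.82, 1.04, 10.2 and 3.94 CPM in HET and 2.95, 3.56, 5.05 and 0.209 CPM in WT. HET replicate 3 held 68 reads and WT replicate 4 held 2, which is below the floor of 3 counts. The Cd80 interval, -0.96 to 2.49 around 0.76 (edgeR adjusted p = 0.889), did not allow a direction to be given, and leaving out HET replicate 3 gave 0.16, leaving out WT replicate 4 gave 0.38.

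Icosl, the ligand of the receptor that sustains follicular helper T cells, was at 48.5, 31.996, 34.9 and 65.1 CPM in HET and 62.5, 35.6, 69.9 and 60.1 CPM in WT. In each group the libraries were spread about as widely as in the other, and WT replicate 2 lay close to the low HET libraries, as HET replicate 4 did to the high WT libraries. Means were 45.1 ± 15.1 CPM (SD, n = 4) and 57.0 ± 14.9 CPM (SD, n = 4), with a log2 fold change of -0.34 (SE 0.25, 95% interval -0.88 to 0.21) and an edgeR adjusted p of 0.826. The exact permutation p was 0.314. The 95% interval spans folds from 0.543 to 1.15. Leaving out 1 library gave -0.56 (without HET replicate 4) to -0.20 (without HET replicate 2).

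The PD-1 ligand genes lie on the same strand of chromosome 19, with 22823 bases between the end of Cd274 and the start of Pdcd1lg2. Cd274 was at 26.2, 38.0, 30.3 and 23.4 CPM in HET and 25.1, 28.0, 30.8 and 12.63 CPM in WT. One WT library, replicate 4, was lower than the rest, and the others intermingled. Pdcd1lg2 was at 13.6, 18.9, 25.6 and 9.40 CPM in HET and 25.1, 21.4, 20.4 and 20.5 CPM in WT. The WT libraries were close together (SD 2.203 CPM) and the HET libraries scattered around and below them (SD 7.01 CPM), with HET replicate 3 above all of WT. The log2 fold changes had opposite signs, 0.29 for Cd274 (SE 0.28, edgeR adjusted p = 0.876) and -0.37 for Pdcd1lg2 (SE 0.31, edgeR adjusted p = 0.847), and both intervals included 0. Cd274 was 0.07 without WT replicate 4 and 0.15 without HET replicate 2, and Pdcd1lg2 was -0.17 without HET replicate 4 and -0.64 without HET replicate 3.

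Promoters are shown for the PD-1 ligands, neighbours whose fold changes had opposite signs with intervals that both included 0. The promoter of Cd80 is shown as well, since it held the 1 AP-1 match found among the genes. RefSeq (GRCm38.p6) held promoters of 6 of the 8 genes, all but Cd83 and Cd86, and the 250 bases before each RefSeq start were searched on both strands for AP-1 (TGANTCA), the STAT site GAS (TTCNNNGAA), the E-box CACGTG and kappaB (GGGNNNNNCC). RefSeq starts are not always those of the GENCODE spans given above, and the windows of Cd80 and Tnfrsf14 lie wholly, and those of Icosl and Btla partly, within those spans. Capitals mark matches, and sequences are 5' to 3' on the plus strand, on which these 3 genes lie, at chr19:29367188-29367437, chr19:29410669-29410918 and chr16:38458683-38458932.
Cd274: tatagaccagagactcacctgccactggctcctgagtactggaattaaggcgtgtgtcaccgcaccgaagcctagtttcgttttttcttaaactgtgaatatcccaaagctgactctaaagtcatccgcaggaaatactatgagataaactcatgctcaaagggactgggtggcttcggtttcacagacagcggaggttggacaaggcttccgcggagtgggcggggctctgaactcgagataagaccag
Pdcd1lg2: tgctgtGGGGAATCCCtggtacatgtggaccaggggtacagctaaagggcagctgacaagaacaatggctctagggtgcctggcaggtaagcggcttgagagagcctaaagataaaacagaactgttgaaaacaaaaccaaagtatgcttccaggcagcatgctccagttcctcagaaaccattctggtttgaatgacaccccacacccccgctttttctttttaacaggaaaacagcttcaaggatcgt
Cd80: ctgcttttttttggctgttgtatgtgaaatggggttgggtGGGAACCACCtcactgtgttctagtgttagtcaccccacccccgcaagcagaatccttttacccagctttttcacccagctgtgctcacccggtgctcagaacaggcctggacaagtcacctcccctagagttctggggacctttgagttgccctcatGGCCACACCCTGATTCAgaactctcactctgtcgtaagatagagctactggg
AP-1 letters occurred in 1 of the 6 promoters (6.75% of all 32851) and kappaB letters in 4 of the 6 (45.8% of all), in Tnfrsf14, Icosl, Cd80 and Pdcd1lg2. GAS and E-box letters occurred in 0 of the 6 (7.02% and 6.02% of all). In Cd80 the second capital run is a kappaB match followed directly by the AP-1 match, whose first base lies 42 bases before the start. In Pdcd1lg2 the kappaB match begins 244 bases before the start, and the windows of Cd274 and Btla held none of the 4 motifs. Such matches describe letters, not binding.

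Btla, an inhibitory receptor of resting and activated B cells, was the least variable of the 8 genes. Its level was 320.0, 292.5, 325 and 271 CPM in HET and 313, 291.6, 372 and 309 CPM in WT. The groups overlapped over most of their range. The log2 fold change was -0.09 (SE 0.10, 95% interval -0.31 to 0.13, edgeR adjusted p = 0.898), an interval that includes folds from 0.808 to 1.09. With library sizes set by B cell markers the log2 fold change of Btla read 0.11. Relative to the median of all genes it was -0.09 with either scaling, which follows from the construction, as the marker scaling moves all genes about alike. Its ligand Tnfrsf14, which also binds LIGHT and CD160, was at 3.30, 5.18, 4.94 and 4.09 CPM in HET and 1.43, 5.18, 8.46 and 5.115 CPM in WT. Both extremes were WT libraries, replicate 1 with 15 reads and replicate 3 with 67. The log2 fold change was -0.20 (SE 0.55, edgeR adjusted p = 0.966), and its sign turned in 3 of the alternative fits.

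To place the 8 genes among related molecules, 5 lists of their pathway were counted, 49 genes of which 46 were in the table and 35 were tested. By edgeR and by DESeq2, 0 of the 35 passed an adjusted p of 0.05. At an unadjusted p of 0.05 in edgeR, 3 were higher and 3 lower in HET, where 3.34% and 3.88% of all tested genes were. Log2 fold changes were positive for 18 and negative for 17, with a median of 0.02, against 49.9% positive and a median of -0.00 over all genes.

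**Figure D5:**
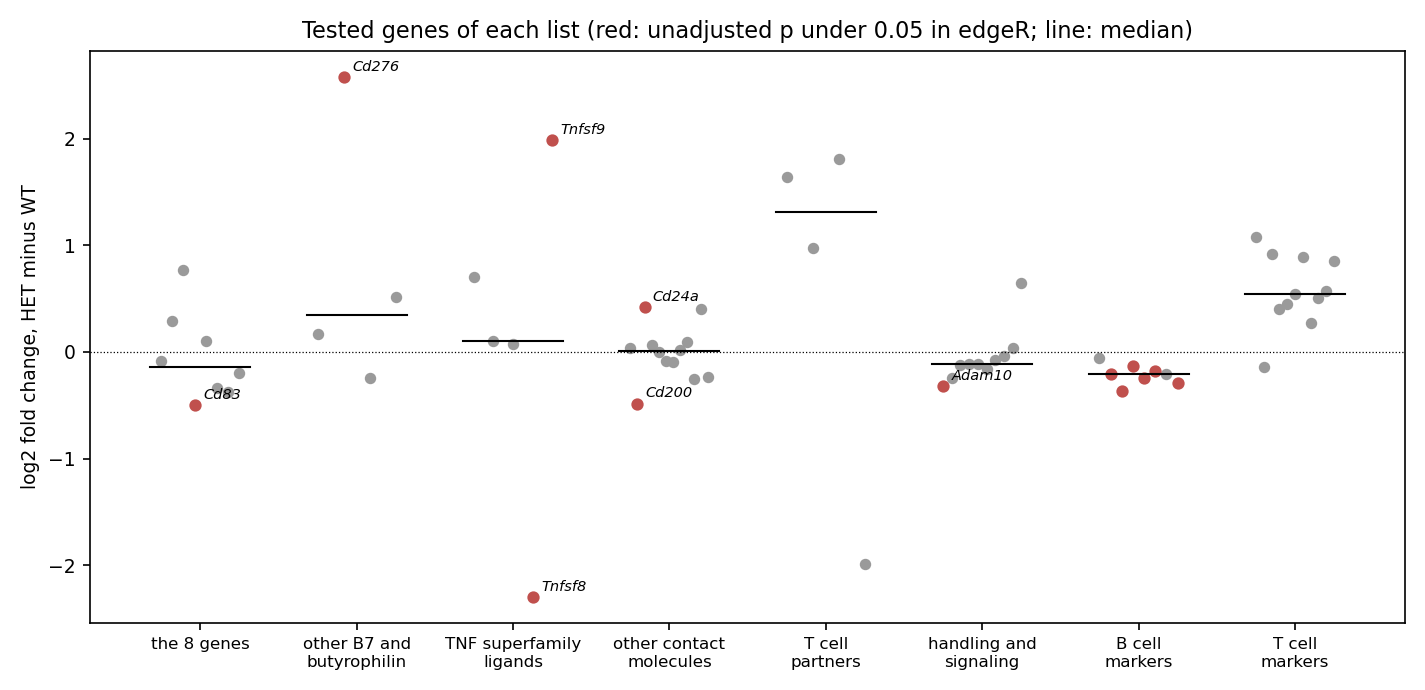
Log2 fold changes (HET minus WT) of the tested genes of each list, with the list median as a line and genes with an unadjusted edgeR p under 0.05 in red. The B cell markers all lay below 0. Of 11 tested T cell markers 10 lay above 0, as did 49.9% of all tested genes. Of these 11 markers, 0 were in red.

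Of the other B7 and butyrophilin genes, 4 of 9 were tested, 3 of them higher in HET and 1 lower (median 0.34 on the log2 scale). Cd276 (B7-H3), a B7 relative found on many cell types, was at 7.40, 3.89, 4.94 and 0.758 CPM in HET and 0.285, 1.42, 0.252 and 0.835 CPM in WT. HET replicate 4 fell among the WT libraries, and the log2 fold change was 2.58 (SE 0.83, edgeR unadjusted p = 0.00797, adjusted p = 0.547). The TNF superfamily ligands had 5 of 9 genes tested, 4 with positive and 1 with negative changes (median 0.10). Tnfsf9 (4-1BB ligand), a costimulator of T cells, was at 22.4, 7.25, 7.19 and 13.8 CPM in HET and 3.33, 0.102, 5.68 and 3.76 CPM in WT. These groups did not overlap, with a log2 fold change of 1.99 (SE 0.71, edgeR unadjusted p = 0.0149, adjusted p = 0.579). Tnfsf8 (CD30 ligand) had a mean of 0.721 ± 0.948 CPM (SD, n = 4) under HET help against 3.52 ± 3.05 CPM (SD, n = 4) under WT help. The groups overlapped, at -2.30 on the log2 scale (SE 0.97, edgeR adjusted p = 0.626). These 3 genes were low, with at most 279 reads in a library.

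Other contact molecules were more abundant, and 12 of 13 were tested, 6 in each direction (median 0.01). Cd24a, a heat-stable surface glycoprotein with costimulatory activity, was at 694, 609, 573 and 903 CPM in HET and 525, 497, 551 and 503.5 CPM in WT. Every HET library was above every WT library. Its log2 fold change was 0.42 (SE 0.12, edgeR unadjusted p = 0.00371, adjusted p = 0.428, DESeq2 adjusted p = 0.0716). Cd200, whose protein delivers an inhibitory signal through CD200R, went the other way, with 76.3, 85.8, 103 and 89.8 CPM in HET against 131, 137, 117 and 110.1 CPM in WT. The groups were separate again, with a log2 fold change of -0.49 (SE 0.13, edgeR unadjusted p = 0.00230, adjusted p = 0.344, DESeq2 adjusted p = 0.0685).

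Among genes whose proteins handle the 8 molecules or signal for them, 10 of 11 were tested, 2 higher and 8 lower (median -0.11). Adam10, the protease that sheds ICOSL from the B cell surface, was at 69.0, 56.1, 59.5 and 71.4 CPM in HET and 75.4, 82.4, 81.8 and 79.7 CPM in WT. No HET library reached the WT range, at a log2 fold change of -0.32 (SE 0.14, edgeR unadjusted p = 0.0352, adjusted p = 0.634). The receptors carried by T cells had 4 of 7 genes tested, 3 higher and 1 lower (median 1.31), and 0 passed the unadjusted limit. Cd28, the receptor of CD80 and CD86, had 12.4 ± 8.55 CPM (SD, n = 4) in the HET libraries and 6.33 ± 2.21 CPM (SD, n = 4) in those of WT (0.98 on the log2 scale, edgeR adjusted p = 0.801), in the same libraries whose T cell markers are given above. The part of that T cell RNA in the levels of the 8 genes was not tested.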

How the data were processed

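RNA of 8 libraries (4 HET, 4 WT) was analysed from 2 tables. The authors adapted SMART-Seq2 to about 200 cells, sequenced poly(A) RNA, aligned reads to GRCm38 with Hisat2 (2.2.1 per the submitters' processing notes) and counted them over genes by HTSeq-count. Annotation version, strand setting and treatment of reads with several alignments are not given in the sources used here, so reads of overlapping genes cannot be told apart. The deposited read counts cover 24259 symbols and the deposited TPM values 24232. Full-length libraries hold no molecular identifiers, so the floor of 3 counts covers counting error only, and low genes are the least precise.

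Counts were tested in R 4.3.3 with edgeR 4.0.16 (filterByExpr, 12744 genes with 99.7% of counts, TMM, robust quasi-likelihood F-test, group alone) with Benjamini-Hochberg adjustment at 0.05. CPM are relative to the TMM-scaled library size. The SE of a log2 fold change is its size over the root of F. Genes with an NA adjusted p in DESeq2 1.42.0 (1003) were left NA. Permutation tests (scipy 1.17.1) were two-sided and exact, and those between groups are unadjusted. Gene positions came from GENCODE M21 and promoters from RefSeq. The scripts were tested on simulated data. The 8 genes, the lists and the tests were chosen with earlier results of these data known. Named were the 8 genes, and from each pathway list the genes with an unadjusted p under 0.05, or else that with the highest mean CPM. Alternatives were DESeq2, RLE factors, other filters, limma 3.58.1 on counts (voom) and on log2(TPM + 1) or log2(TPM + 0.1), a replicate block, the number of detected genes as a covariate, omission of 290 immunoglobulin genes, an adjusted p of 0.1 and omission of each library. Library sizes set by B cell markers, DESeq2 with libraries left out and on all genes, and the joint omission of HET replicate 1 and WT replicate 4 were added after seeing the data. Repeat libraries differed beyond sampling noise (chi-square per degree of freedom 13.0 to 32.4). Each entered the tests as 1 repeat of its group's pool, which does not make it a separate sample of the condition.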

Additional observations from a re-analysis of the deposited data

How the results depend on the processing

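Over 165 alternative fits of the 8 genes, 160 kept the sign, 5 reversed it and 1 passed the threshold, Cd83 by DESeq2. The 165 do not include DESeq2 on all genes or with libraries omitted, where Cd83 was called in 5 of 8 single omissions. Reversed were Cd86 without HET replicate 3 (-0.013), Tnfrsf14 with the replicate block (0.0060), by limma-voom (0.15) and without WT replicate 3 (0.17), and Btla with library sizes set by B cell markers (0.11). That scaling raises the median of all genes by 0.20, so the last reversal follows from its construction. Leaving out each library gave -0.013 to 0.28 for Cd86 and -0.52 to 0.17 for Tnfrsf14. The cause of the other reversals was not tested. Without WT replicate 4, 6 instead of 5 neighbouring pairs of levels differed. DESeq2 on all genes gave Cd83 an adjusted p of 0.0488.

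Genes called numbered 3 by edgeR (0 higher and 3 lower), 77 by DESeq2 (29 and 48), 38 without the filter (19 and 19), 7 at a mean of at least 50 counts, 6 by limma-voom, 0 by limma on log2(TPM + 1) with or without a mean TPM of at least 1, 1 on log2(TPM + 0.1), 1 with genes detected as a covariate, 6 with library sizes set by B cell markers (5 higher and 1 lower), 8 at an adjusted p under 0.1 and 1 to 6 without single libraries (6 without WT replicate 1, and 1 without any HET library or WT replicate 3). DESeq2 called 38 to 120 without single libraries, the fewest without WT replicate 4 and the most without WT replicate 2, and 48 without both HET replicate 1 and WT replicate 4. Of the 8 genes, 0 were called by edgeR and 1 by DESeq2. For the pathway lists both counts were 0.

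The numbers of the repeats did not pair the libraries (correlations of same-numbered deviations from -0.05 to 0.01). With the replicate block 0 genes were called, none of the 8 among them.

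Depth limits Cd80 and Tnfrsf14, with at most 68 and 67 reads in a library. At a mean of at least 50 counts neither was tested, nor was Cd80 at a mean TPM of at least 1.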
